A study of Mus musculus with 2 samples.

Results

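Slc2a1, Slc2a3, Slc2a4, Slc2a12, Hk1, Hk2, Gys1, Pygm, Pygb and Phkg1 carry glucose into the cell, trap it there, store it as glycogen and release it again, and their RNA was measured in the aged mouse heart. They were chosen by gene name, and all 10 were matched among 55536 Ensembl genes. No measured value was part of this rule, but earlier results of these data were known when the choice was made. Total RNA, 300 ng per library, was taken from hearts of B6CASTF1/J females, first-generation hybrids of C57BL/6J and CAST/EiJ, at 18 to 20 months of age, and was sequenced after reduction of ribosomal RNA with ERCC spike-ins added. The labels give 1 group of 2 libraries, biological replicates 1 and 2, with no treatment and no second condition. Both libraries name the same donor entry but separate biosamples, so part of their spread may be technical. The data thus say at what level each gene stood, which paralog led, which transcripts carried it and how far apart the libraries were, and no contrast between conditions could be tested.

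Glucose enters cells down its gradient through the facilitative transporters of the Slc2a family. The family's GLUT4, encoded by Slc2a4, is held in vesicles inside muscle and fat cells and moved to the surface after insulin or contraction, whereas GLUT1, encoded by Slc2a1, sits at the surface in most cells. Hexokinases phosphorylate the glucose so that it cannot leave. Glycogen synthase then adds it to glycogen, and glycogen phosphorylase, switched on by phosphorylase kinase, cuts it off again, which in muscle feeds glycolysis in the same cell.

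The first bases of the coding sequence are shown for Hk1 and Hk2 because the 3 leading Hk1 transcripts differ there, and because the deposited tables disagreed on which of the 3 led. They are the first 90 coding nt, 5′ to 3′, from the GENCODE M21 transcripts, and so carry the C57BL/6J alleles of the reference. Capitals mark the coding bases in front of the exon that the 3 Hk1 transcripts share, and in Hk2 those of the first exon. Hk1 lies on the minus strand of chromosome 10 in mm10, and the 90 nt of Hk1-202, introns included, span chr10:62315522-62340075.
Hk1-202: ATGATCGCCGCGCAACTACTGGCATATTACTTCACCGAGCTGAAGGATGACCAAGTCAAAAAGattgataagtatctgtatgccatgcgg
Hk1-201: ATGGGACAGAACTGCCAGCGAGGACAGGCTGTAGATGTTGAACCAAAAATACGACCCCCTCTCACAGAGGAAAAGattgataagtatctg
Hk1-205: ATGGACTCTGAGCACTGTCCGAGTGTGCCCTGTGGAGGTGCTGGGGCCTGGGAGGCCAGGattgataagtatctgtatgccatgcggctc
Hk2-201: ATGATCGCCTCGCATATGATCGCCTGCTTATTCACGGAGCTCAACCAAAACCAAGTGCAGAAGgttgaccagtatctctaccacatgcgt
The first coding exon of Hk1-202 matched Hk2-201 at 68.3% of its 63 capital positions. The capitals of Hk1-201, 75 nt, and of Hk1-205, 60 nt, matched Hk2-201 at 22.7% and 21.7% of positions, compared base by base from the start codon without gaps. Hexokinase 2, and the form of hexokinase 1 that begins like it, are known to dock on the outer mitochondrial membrane through this end.

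The 10 genes ranged from 478 TPM for Pygm to 1.12 TPM for Slc2a3, where TPM is the abundance of a gene's transcripts relative to all others in the library, corrected for length, so that genes can be compared. In both libraries, 9 of the 10 reached 1 TPM, beside 21.6% of all Ensembl genes and 50.0% of protein-coding genes. Slc2a3 was the exception. Pygm ranked 110th of the 11341 protein-coding genes with a mean of 1 TPM or more, in the top 0.970%. Pygb ranked 307th, Slc2a4 319th, Hk2 405th, Hk1 1153rd and Gys1 1187th, and each of these 6 stood above the median of those genes, 8.58 TPM. Slc2a12, Phkg1, Slc2a1 and Slc2a3 stood below it. The 10 genes together held 1140 TPM (replicate 1) and 1077 TPM (replicate 2), or 0.276% and 0.269% of the TPM of nuclear protein-coding genes.

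**Figure D1:**
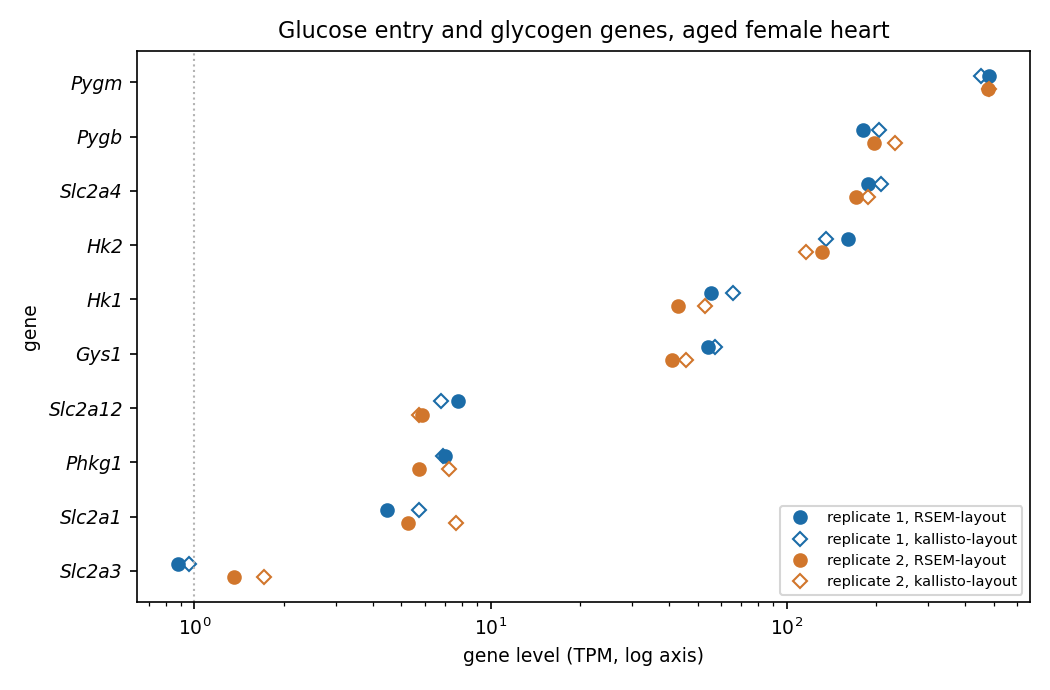
Level of each of the 10 genes in TPM on a log axis, one row per gene, for replicates 1 and 2 in the RSEM-layout gene table (filled circles) and the kallisto-layout table (open diamonds). The dotted line is 1 TPM. Pygm is highest near 480 TPM, and Slc2a3 alone falls below the line, at 0.88 TPM in replicate 1, with 1.36 in replicate 2.

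Neighbours in this order were called apart where the log2 difference had one sign in both libraries and its smaller value exceeded the gap between the libraries. Pygm stood above Pygb by 1.34 ± 0.095 on the log2(TPM + 0.1) scale (SD, n = 2, as for every ± below). Slc2a4 stood above Hk2 by 0.30 ± 0.10, Hk2 above Hk1 by 1.58 ± 0.058 and Gys1 above Slc2a12 by 2.79 ± 0.0050. Slc2a1 stood above Slc2a3 by 2.05 ± 0.24. Pygb and Slc2a4, Hk1 and Gys1, Slc2a12 and Phkg1, and Phkg1 and Slc2a1 did not differ beyond their spread. In the kallisto-layout table the same rule changed 1 of the 9 calls on neighbours: Hk1 stood above Gys1 there by 0.20 in replicate 1 and 0.22 in replicate 2. From the top, the steps of the RSEM-layout table were thus Pygm, the pair Pygb and Slc2a4, Hk2, the pair Hk1 and Gys1, a low group of Slc2a12, Phkg1 and Slc2a1, and Slc2a3.

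Each library held between 35897521 and 36926429 expected counts. Of the marker lists, cardiomyocyte genes such as Myh6 and Tnnt2 were high in both, 6 of 6, summing to 31064 TPM (replicate 1) and 30032 TPM (replicate 2), as the label heart implies. Skeletal muscle markers summed to 1.30 and 0.860 TPM, with 0 of 7 at 1 TPM and Myh2, Myh4 and Myog at 0 in both, so the muscle forms described here were measured next to almost no RNA of skeletal fibres. The libraries differed in other lists. Adipocyte markers summed to 26.3 TPM (replicate 1) and 284 TPM (replicate 2), with 6 of the 7 genes 2-fold or more lower in replicate 1 and Lep near 0 in both. Erythroid markers summed to 23412 and 11151 TPM, with 6 of 6 at least 2-fold higher in replicate 1. Atrial markers summed to 441 and 1066 TPM, with 4 of 4 at least 2-fold lower in replicate 1. Macrophage and leukocyte markers summed to 67.1 and 116 TPM, with Ptprc the 1 of 6 that was 2-fold lower and Adgre1 the 1 that was higher in replicate 1. Fibroblast markers summed to 187 and 210 TPM, with 0 of 5 higher in replicate 1 and 0 of 5 apart by 2-fold. In bulk tissue, fewer cells of a type and less RNA per cell cannot be told apart.

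Slc2a4 was the leading glucose transporter of this heart. The gene (ENSMUSG00000018566.14, chr11:69942539-69948188, minus strand) had 189 TPM (replicate 1) and 171 TPM (replicate 2), a mean of 180 ± 12.6 TPM from 12336 and 11738 expected counts. It held 88.9% ± 0.989 of the summed TPM of 12 Slc2a genes. In the kallisto-layout table it held 88.6%, so that both tables put it far above every paralog.

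Slc2a12 encodes GLUT12, another transporter that has been found in insulin-responsive tissues. It (ENSMUSG00000037490.5, chr10:22645011-22704285, plus strand) had 7.73 TPM (replicate 1) and 5.85 TPM (replicate 2), from 728 and 660 expected counts. That was 3.35% of the family. Its exons overlap by 407 nt those of Tbpl1 on the opposite strand, a gene with 8.83 and 7.94 TPM. Whether the authors' counting used strand is not given in the sources used here.

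Slc2a1 (ENSMUSG00000028645.11, chr4:119108711-119137983, plus strand) had 4.48 TPM (replicate 1) and 5.27 TPM (replicate 2), from 354 and 457 expected counts. It made up 2.43% of the family. Slc2a4 exceeded it by 5.36 log2 units in replicate 1 and by 4.99 in replicate 2, a mean of 5.18 ± 0.26 or 36.2-fold. The kallisto-layout table gave 4.88, or 29.4-fold. A difference of this size was well beyond the spread between the libraries in either table.

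The order of Slc2a12 and Slc2a1 was not settled. Slc2a12 over Slc2a1 came to 0.77 in replicate 1 and 0.15 in replicate 2, a mean of 0.46 ± 0.44. The kallisto-layout table reversed the mean to -0.082. Slc2a8, an intracellular member of the family and no member of the 10, lay in the same range with 5.69 TPM (replicate 1) and 6.73 TPM (replicate 2).

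Slc2a3 encodes GLUT3, a transporter of high affinity best known from neurons and also found in platelets and white blood cells. It (ENSMUSG00000003153.10, chr6:122727809-122801640, minus strand) had 0.88 TPM (replicate 1) and 1.36 TPM (replicate 2). These levels rest on 72 and 87 expected counts, with exact Poisson intervals of 56.3 to 90.7 and 69.7 to 107 counts. Depth limits this gene most. In replicate 1 the authors' posterior mean was 1.74 TPM and their credibility interval ran from 1.03 to 2.49 TPM, above the maximum likelihood value. Slc2a1 exceeded Slc2a3 4.15-fold, or by 2.05 log2 units, which became 1.47 with posterior means. The macrophage and leukocyte markers summed to 67.1 TPM (replicate 1) and 116 TPM (replicate 2). Lyz2 made up 46.85 and 86.89 TPM of these sums, and Adgre1 went the other way, with 3.17 and 2.28 TPM. The TPM of Slc2a3 was lower in replicate 1, but its counts showed no detectable difference, with a ratio of 0.851 (0.614 to 1.18). Platelet markers summed to 25.9 and 17.7 TPM and markers of neurons and Schwann cells to 1.51 and 1.66 TPM. The part of these cells in the Slc2a3 level was not tested.

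Of the 14 glucose transporters listed, 5 reached 1 TPM in both libraries. Besides Slc2a4, Slc2a12 and Slc2a1 these were Slc2a8 and Slc2a10, and Slc2a10 had 1.94 TPM in replicate 1 against 2.23 in replicate 2. Slc2a7 and the kidney sodium-coupled transporter Slc5a2 were at 0 counts in both libraries, which at these depths limits them to 3 counts, 0.0836 and 0.0812 CPM.

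Hk2 was the leading hexokinase. The gene (ENSMUSG00000000628.10, chr6:82725025-82774454, minus strand) encodes the insulin-regulated form of muscle and fat, and had 161 TPM (replicate 1) and 132 TPM (replicate 2), from 18170 and 15544 expected counts. It held 74.8% ± 0.729 (SD, n = 2) of the summed TPM of Hk1, Hk2, Hk3 and Hkdc1, against a share of 67.9% in the kallisto-layout table. By library the share was 74.3% (replicate 1) and 75.3% (replicate 2).

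Hk1 (ENSMUSG00000037012.18, chr10:62268855-62379908, minus strand) encodes the hexokinase found in most tissues and dominant in brain and red cells. It had 55.3 TPM (replicate 1) and 42.8 TPM (replicate 2), which was 25.6% (replicate 1) and 24.5% (replicate 2) of the same sum. Hk2 exceeded Hk1 2.98-fold, the log2 of Hk1 over Hk2 being -1.54 in replicate 1 and -1.62 in replicate 2. The kallisto-layout table gave 2.12-fold, a value that lies outside the spread of the first. Both tables put Hk2 first in both libraries.

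Hk3, a hexokinase of white blood cells, had 0.23 TPM (replicate 1) and 0.26 TPM (replicate 2), and Hkdc1 was at 0 and 0.01 TPM. Of the phosphatases that undo the step, G6pc, the form of liver and kidney, was at 0 in both libraries, whereas the widely expressed G6pc3 had 20.3 and 21.2 TPM.

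**Figure D2:**
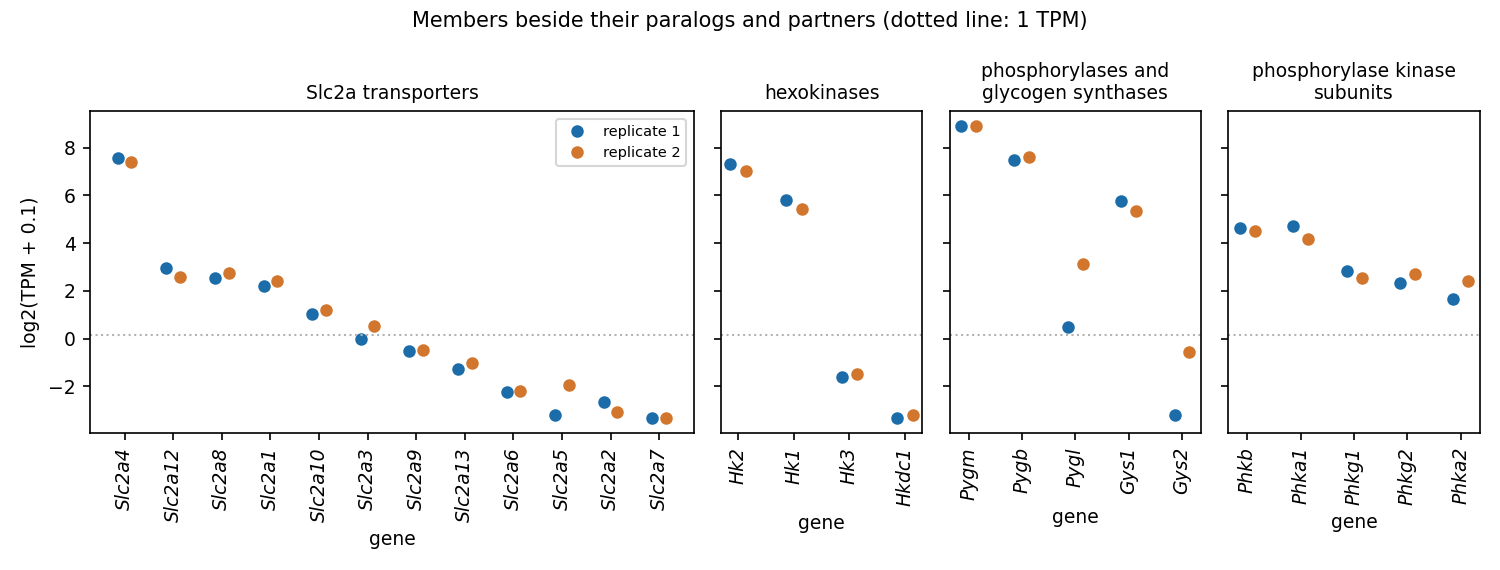
Level of the Slc2a transporters, hexokinases, phosphorylases with glycogen synthases, and phosphorylase kinase subunits, as log2(TPM + 0.1), with replicate 1 left of replicate 2 for each gene. The dotted line is 1 TPM. Slc2a4, Hk2, Pygm and Gys1 lead their families in both libraries, and Pygl differs most between the libraries, at 1.30 TPM (replicate 1) and 8.73 TPM (replicate 2).

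The 2 tables disagreed on which Hk1 transcript led. In the RSEM-layout table Hk1-202, whose coding start is most like that of Hk2, held 53.1% of Hk1 TPM in replicate 1 and 66.5% in replicate 2. Hk1-205 held 23.7% and 18.3%, and Hk1-201 held 20.0% and 10.9%. In the kallisto-layout table Hk1-205 had 26.9 TPM (replicate 1) and 18.9 TPM (replicate 2), and Hk1-201 had 23.2 and 19.7 TPM. Hk1-202 was below both, with 13.0 and 12.9 TPM. Hk1-205 thus led there in replicate 1 and in the mean share, and Hk1-201 led in replicate 2. Hk1 was the only one of the 10 genes whose leading transcript differed between the tables, which together list 68 transcripts for them, 45 of these with TPM above 0 in the RSEM-layout table of at least 1 library.

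The Hk1 transcripts share most of their sequence. Of the 31-nt words of Hk1-201, 100% also stood in other annotated Hk1 transcripts, and of those of Hk1-205 and Hk1-202, 99.5% and 81.8%. The first exons lie apart, at chr10:62340013-62340542 for Hk1-202, chr10:62342501-62342722 for Hk1-205 and chr10:62358336-62358362 for Hk1-201. The level of Hk1-202 was close in the 2 libraries, 29.4 TPM (replicate 1) and 28.5 TPM (replicate 2), while Hk1-205 had 13.1 and 7.83 TPM and Hk1-201 had 11.0 and 4.67 TPM. Hk1-205 and Hk1-201 were thus higher in replicate 1, as were the erythroid markers. For Hk1-201 the libraries were closer in the kallisto-layout table, at 23.2 and 19.7 TPM. Human red cells are known to use an HK1 transcript with a first exon of its own. Neither Hk1-205 nor Hk1-201 was compared with it. The part of red cells in these levels was not tested.

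The bases in front of 2 Hk1 starts are shown because one start carried RNA and the other carried almost none. Hk1-203, which begins farthest upstream, was at 0 TPM in both libraries of the RSEM-layout table and at no more than 0.334 TPM in the kallisto-layout table. The sequences are RefSeq's, build GRCm38.p6, on the minus strand, at chr10:62379909-62380158 for Hk1-203 and chr10:62340543-62340671 for Hk1-202, where the RefSeq stretch was shortened to the 129 nt that precede the GENCODE start. Capitals mark CG dinucleotides.
Hk1-203 upstream: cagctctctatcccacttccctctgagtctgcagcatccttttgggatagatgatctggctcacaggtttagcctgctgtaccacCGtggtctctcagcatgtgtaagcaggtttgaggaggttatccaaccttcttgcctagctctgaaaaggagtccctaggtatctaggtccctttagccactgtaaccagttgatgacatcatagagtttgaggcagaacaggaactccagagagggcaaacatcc
Hk1-202 upstream: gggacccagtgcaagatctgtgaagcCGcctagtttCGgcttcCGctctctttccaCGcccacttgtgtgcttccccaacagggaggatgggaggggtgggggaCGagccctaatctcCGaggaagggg
The 250 nt before Hk1-203 held 1 CG, a number that 92.1% of the 32851 promoters in the same RefSeq table reached or exceeded. The 129 nt before Hk1-202 held 6. Over the whole 250 nt before the RefSeq start of Hk1-202 there were 14, which 29.4% of promoters reached, and before Hk2 there were 25, which 10.7% reached. The median promoter held 6. Promoters of 8 of the 10 genes were in the table, and counts for the others ran from 17 for Pygb to 1 for Phkg1. These are descriptions of sequence and not measures of promoter use.

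The tables also differed in the short transcripts of Hk2, Pygm and Pygb, and not all in the same direction. Hk2-201, the full coding transcript, held 72.3% of Hk2 TPM in replicate 1 and 71.6% in replicate 2 of the RSEM-layout table. Hk2-202, a processed transcript of 594 nt, held 27.3% and 28.0% of TPM there but 3.34% and 3.45% of the gene's expected counts, and was at 0 in the kallisto-layout table. Of its 31-nt words, 95.2% also stood in Hk2-201. Pygm-203, a retained intron of 532 nt, held 13.0% and 14.5% of Pygm TPM in the RSEM-layout table and 6.01% and 9.39% in the kallisto-layout table. Pygb-203, a retained intron of 531 nt, went the other way. It held 3.67% and 0% of Pygb TPM in the RSEM-layout table and 12.6% and 9.71% in the kallisto-layout table. For transcripts of the 10 genes of 1000 nt or more, the effective length was 99 nt below the annotated one in the RSEM-layout table, and 325 and 322 nt below it in the kallisto-layout table. With protein-coding transcripts alone, Hk1 over Hk2 came to -1.12 on the log2 scale in the RSEM-layout table, near the -1.08 of the kallisto-layout table for all transcripts.

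**Figure D3:**
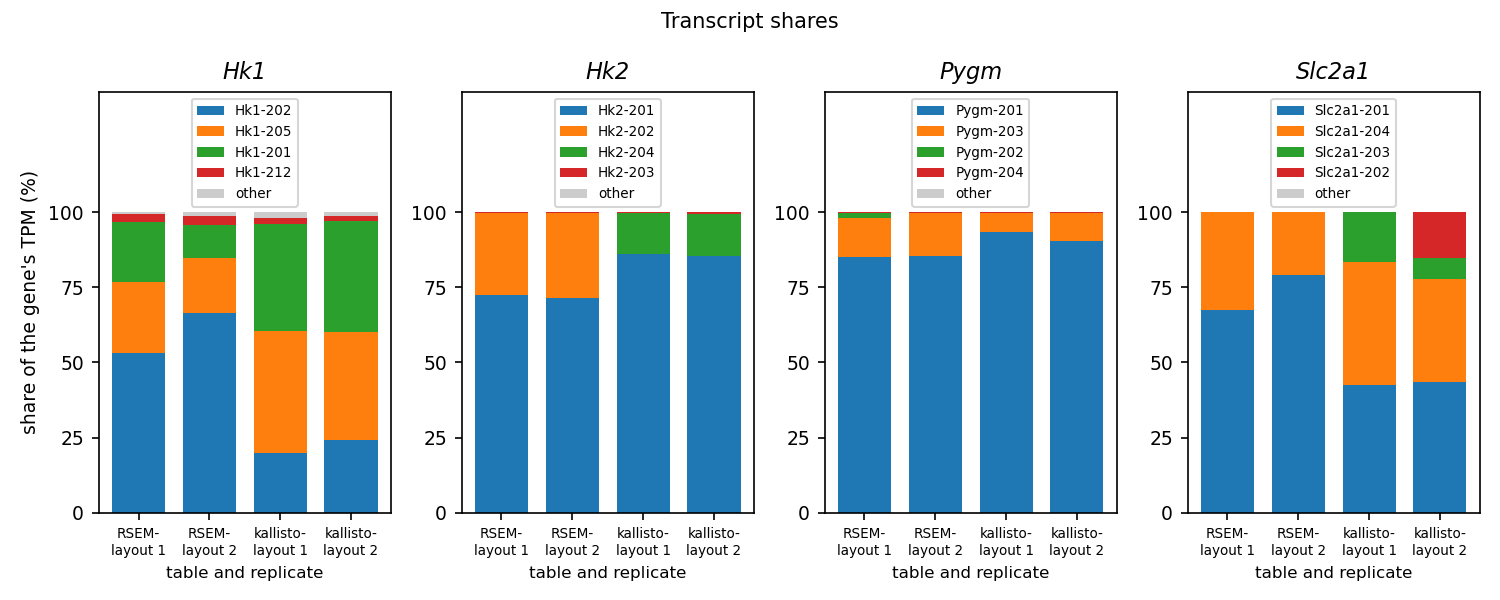
Share of each gene's TPM, in percent, taken by its leading transcripts, for Hk1, Hk2, Pygm and Slc2a1, with 1 bar per table and replicate; the number under a bar is the replicate. Hk1-202 takes 53.1% and 66.5% of Hk1 in the RSEM-layout bars and 19.7% and 24.4% in the kallisto-layout bars, where Hk1-205 is the larger.

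In the RSEM-layout table, used here unless stated, a single transcript carried nearly all of the RNA of Gys1, Pygb and Slc2a4. Gys1-201 held 97.5% of Gys1, Pygb-201 held 97.0% of Pygb and Slc2a4-201 held 94.1% of Slc2a4 in the mean of the RSEM-layout libraries. In the kallisto-layout table these means were 99.2%, 88.4% and 88.7%, and Slc2a12-201 reached 96.6% and Pygm-201 92.0% there. Slc2a1-201 held 67.5% and 79.1% of Slc2a1, and the rest was Slc2a1-204, annotated as a target of nonsense-mediated decay, with 32.5% and 20.9%. The kallisto-layout table gave Slc2a1-204 41.0% and 34.1%. Slc2a12-202, a 398-nt processed transcript, held 18.5% and 6.21% of Slc2a12, and Phkg1-202, 502 nt long, held 25.5% and 0% of Phkg1. Slc2a3 had the lowest leading share of the 10 genes in the RSEM-layout table. Slc2a3-201 held 68.8% of it in replicate 1 and 45.0% in replicate 2, and Slc2a3-202 held 0% and 27.0%, with 6 transcripts detected from the few counts of this gene.

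Gys1 (ENSMUSG00000003865.16, chr7:45434844-45456619, plus strand), the glycogen synthase of muscle and most tissues, had 54.2 TPM (replicate 1) and 40.9 TPM (replicate 2). The mean was 47.6 ± 9.36 TPM, beside 57.3 and 45.6 TPM for the libraries of the kallisto-layout table. Gys2, the liver synthase, had 0.01 and 0.57 TPM, and Gys1 held 99.3% of the TPM of both. An exonic stretch of 310 nt is shared with Ruvbl2 on the opposite strand, which had 10.8 and 9.81 TPM.

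The highest of the other genes of glycogen synthesis stood above Gys1. Ugp2, which makes UDP-glucose, had 108 TPM (replicate 1) and 99.9 TPM (replicate 2). Pgm1, which supplies glucose 1-phosphate, had 85.4 and 85.2 TPM, and Gyg, the glycogenin that primes a new particle, had 72.1 and 65.4 TPM. The branching enzyme Gbe1 had 22.9 and 23.2 TPM. Of the 9 genes of glycogen synthesis 8 reached 1 TPM in both libraries, Gys2 being the exception.

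Pygm (ENSMUSG00000032648.14, chr19:6384399-6398459, plus strand), the muscle form of glycogen phosphorylase, was the highest of the 10 genes. It had 480.1 TPM (replicate 1) and 476 TPM (replicate 2), from 33001 and 34069 expected counts. The 2 libraries lay within 1.01-fold of each other. In the kallisto-layout table they lay farther apart, at 453 and 482 TPM, with replicate 1 the lower.

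Pygb (ENSMUSG00000033059.7, chr2:150786735-150831758, plus strand), the form named for brain, was also high. It had 181 TPM (replicate 1) and 197 TPM (replicate 2). The kallisto-layout table gave 205 and 232 TPM. Pygm exceeded Pygb 2.53-fold, with log2 differences of 1.41 in replicate 1 and 1.27 in replicate 2, and 2.15-fold in the kallisto-layout table. Pygm held 71.2% ± 1.88 of the TPM of the 3 phosphorylases and Pygb 28.1%. Only 1.34% of the 31-nt words of Pygm-201 stood in Pygb transcripts and 0.980% of those of Pygb-201 in Pygm, so the 2 genes have few of these words in common.

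Pygl, the liver phosphorylase, differed between the libraries, with 1.30 TPM (replicate 1) and 8.73 TPM (replicate 2), and took 0.196% and 1.28% of the family. Its values moved in the direction of the summed adipocyte, atrial, fibroblast, and macrophage and leukocyte markers given above. The part of those cells in the difference was not tested. Gaa, the lysosomal glucosidase, had 46.0 and 42.9 TPM.

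Phosphorylase RNA far exceeded synthase RNA in both libraries. Gys1 over Pygm was -3.15 in replicate 1 and -3.54 in replicate 2 on the log2 scale, a mean of -3.34 ± 0.28, or 10.1-fold more Pygm. The kallisto-layout table gave 9.13-fold. These are levels of RNA; enzyme activity, which phosphorylation sets for both enzymes, was not measured.

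Phkg1 (ENSMUSG00000025537.12, chr5:129863421-129898549, minus strand) encodes the catalytic subunit of phosphorylase kinase in muscle. It had 7.0 TPM (replicate 1) and 5.71 TPM (replicate 2), from 341 and 371 expected counts. Its paralog Phkg2, named for liver and testis, had 4.87 and 6.36 TPM. Phkg1 over Phkg2 was thus 0.51 in replicate 1 and -0.15 in replicate 2, and the paralogs could not be ranked. Phkg1 held 59.0% and 47.3% of the catalytic subunits in the RSEM-layout table and 56.8% and 53.4% in the kallisto-layout table. Up to 630 nt of its exons lie opposite Sumf2, which had 5.29 and 3.99 TPM, and 5.84% of the words of Phkg1-201 stood in other genes.

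Of the other subunits, the alpha pair was led by the muscle form. Phka1, the muscle regulatory alpha subunit, had 26.3 TPM (replicate 1) and 18.1 TPM (replicate 2), and Phka2, the liver form, had 3.04 and 5.17 TPM. Phka1 thus held 89.6% and 77.8% of the alpha subunits. Phkb, the beta subunit, had 24.5 and 22.5 TPM. Each library therefore held more RNA of the leading alpha subunit and of the beta subunit than of both catalytic paralogs together, which summed to 11.9 and 12.1 TPM.

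Of the 14 regulators of glycogen metabolism on the list, 13 had a mean of 1 TPM or more. Of these 13, 0 were 2-fold apart between the libraries, beside 4.22% of all genes tested, so a count of 0 says little. The phosphatase catalytic subunits Ppp1cb, with 183 TPM (replicate 1) and 175 TPM (replicate 2), and Ppp1ca, with 106 and 114 TPM, were the highest. Ppp1r3c, which targets that phosphatase to glycogen, had 58.7 and 61.9 TPM.

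Among genes that move GLUT4 or control uptake, Txnip, an arrestin-family protein that lowers glucose uptake, was the highest, with 91.7 TPM (replicate 1) and 206 TPM (replicate 2). Lnpep, the aminopeptidase that travels in GLUT4 vesicles, had 58.6 and 64.8 TPM, and Rab10, a small GTPase of vesicle delivery, had 51.2 and 48.9 TPM. Trarg1, a GLUT4 trafficking protein known from fat cells, had 0.92 and 2.74 TPM. Txnip and Trarg1 were 2-fold or more lower in replicate 1. The summed adipocyte, atrial, fibroblast, and macrophage and leukocyte markers were lower in replicate 1 too. The log2 of replicate 1 over replicate 2 was 0.14 for Slc2a4, which fat cells also express. The part of fat cells, or of the other cell types, in the levels of Txnip, Trarg1 and Slc2a4 was not tested.

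None of the 10 genes was 2-fold or more apart between the libraries, beside 4.22% of the 12510 genes with a mean of 1 TPM or more. None was 1.5-fold apart either, beside 10.8%, though Slc2a3 came close at 1.49-fold on the log2(TPM + 0.1) scale. In the kallisto-layout table Slc2a3 passed that bar, with a log2 of replicate 1 over replicate 2 of -0.78. At a lower bar of 1.2-fold, 5 of the 10 were higher in replicate 1, beside 13.7% of all genes tested, and 1 of the 10 was lower in replicate 1, beside 20.6%. In the kallisto-layout table the counts at this bar were 2 higher, beside 11.0% of all genes tested there, and 2 lower, beside 27.4%. Over 6 scalings of the values, 2 to 5 of the 10 were higher and 0 to 2 lower. By any amount, 7 of the 10 were higher in replicate 1, beside 45.7%. That count was 5 to 7 over the same scalings, in which Pygm and Phkg1 turned direction. The median log2 of replicate 1 over replicate 2 was 0.22 over the 10 genes and -0.023 over all genes tested. With 1 library on each side no test of these differences was possible.

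Gys1, Slc2a12, Hk1, Hk2 and Phkg1 were the 5 genes at least 1.2-fold higher in replicate 1 in the RSEM-layout table, and Slc2a3 the 1 lower. Gys1 and Hk1 passed this bar under all 6 scalings. In the kallisto-layout table Slc2a12, Hk2 and Phkg1 did not pass it, and Slc2a1, with a log2 of replicate 1 over replicate 2 of -0.41, joined Slc2a3 among the lower genes. Relative to library size, the expected counts of Gys1 stood 1.30-fold higher in replicate 1, with a 95% interval for counting error of 1.24 to 1.35. For Hk1 the ratio was 1.23 (1.18 to 1.28) and for Hk2 1.2 (1.18 to 1.23). For Slc2a12 it was 1.13 (1.02 to 1.26), below the 1.32-fold of its TPM. These 4 intervals lie above 1, though they leave out the spread between samples and between library preparations. For Slc2a3 the ratio was 0.851 (0.614 to 1.18) and for Phkg1 0.945 (0.814 to 1.1), so that the counts showed no difference detectable at this depth. For Phkg1 the TPM ratio of 1.22 went with an effective gene length of 1744 nt in replicate 1 and 2209 nt in replicate 2, and the kallisto-layout ratio was -0.071 on the log2 scale. Slc2a1 and Pygb were lower in replicate 1 in their counts, Slc2a1 at 0.797 (0.692 to 0.917) and Pygb at 0.864 (0.848 to 0.881), and Pygm was at 0.996 (0.981 to 1.01).

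**Figure D4:**
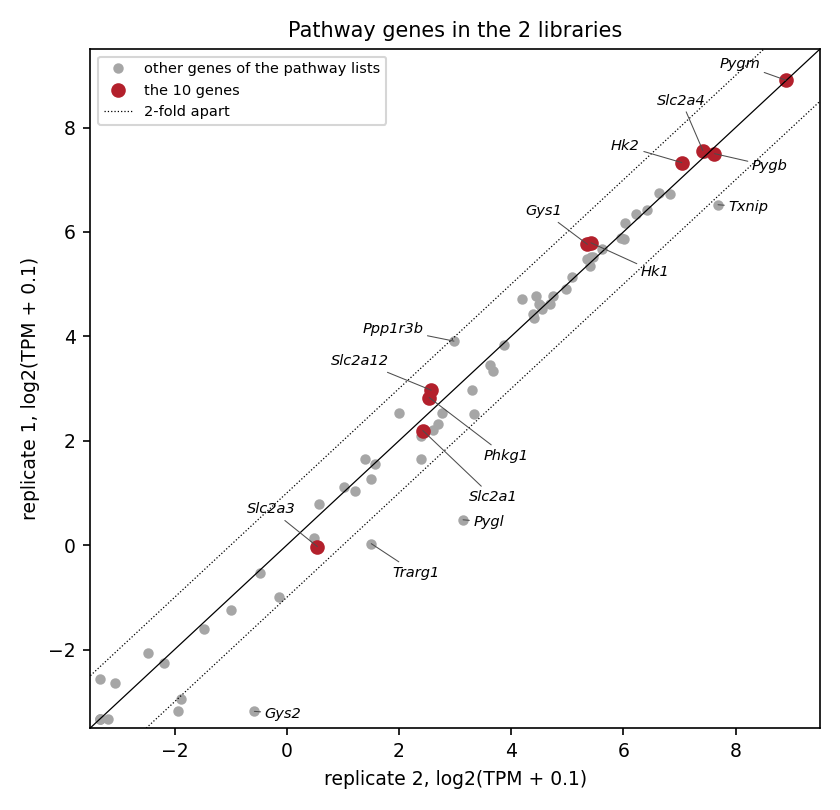
Level in replicate 1 (vertical axis) against replicate 2 (horizontal axis), as log2(TPM + 0.1), for the 10 genes (red) and the other genes of the 7 pathway lists (grey). The solid line marks equal levels and the dotted lines a 2-fold difference. All 10 genes lie between the dotted lines; among the others with a mean of 1 TPM or more, Pygl, Trarg1 and Txnip lie below them.

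Of the 61 other genes on the 7 pathway lists, 46 had a mean of 1 TPM or more. Of these, 3 were 2-fold or more apart, namely Pygl, Trarg1 and Txnip, beside 4.22% of all genes tested. Of the 46, 21 were higher in replicate 1, beside 45.7% of all genes tested. The median log2 of replicate 1 over replicate 2 was -0.039 over the 46 and -0.023 over all genes tested. Ppp1r3b, a glycogen-targeting phosphatase subunit known best from liver, came close to the bar with 14.9 TPM (replicate 1) and 7.79 TPM (replicate 2); it was singled out after its values were seen.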

How the data were processed

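Total RNA-seq of 2 heart libraries was used, grouped by the labels. The expected counts of the RSEM-layout tables and the estimated counts of the kallisto-layout table were deposited by the authors per gene or transcript. TPM was deposited by the authors over all rows of a table, mitochondrial genes and spike-ins included, as maximum likelihood values and posterior means. FPKM was deposited by the authors per kilobase of effective length and library size. Transcript shares in percent of the gene's TPM were deposited by the authors for the RSEM-layout table. For the kallisto-layout table they were computed here from the deposited TPM. Per the deposited readme, the build is mm10 and the annotation GENCODE M21; tables are named by the layout of their headers, since the programs and the aligner are not given in the sources used.

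Members were matched by gene name, and kallisto-layout transcripts were summed per gene. Levels are means ± SD of TPM; ratios use log2(TPM + 0.1), which understates changes of low genes. Counts of genes apart used genes with a mean of 1 TPM or more. Intervals are exact Poisson or binomial at 95% and, like the limit of 3 counts for a 0, describe counting error alone, because reads need not be separate molecules. The libraries were not copies of 1 library: chi-square per degree of freedom was 28.5 over 17434 genes. The call of genes 2-fold apart was tried on simulated counts after TMM scaling. The deposited TPM and the bars of 1.5-fold and 1.2-fold were not part of that trial. Tools were Python 3.11.15, pandas 2.3.3, NumPy 2.4.6, SciPy 1.17.1 and R 4.3.3, with edgeR 4.0.16 and DESeq2 1.42.0 for scaling factors only.

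The members, the 7 pathway lists and the marker lists were chosen with earlier results of these data known. Values are printed for the members, the 3 highest genes of each list, direct paralogs and partners, and genes 2-fold apart at a mean of 1 TPM or more; exceptions are named, and some genes of the lists are counted but not reported here. With 2 libraries no likeness of pattern across samples could be measured. Alternatives were the kallisto-layout table, posterior means, FPKM, rescaling to nuclear protein-coding genes, other pseudocounts, minimums and folds, TMM and DESeq2 scaling, and each library alone.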

Additional observations from a re-analysis of the deposited data

How the results depend on the processing

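Mean levels in TPM moved by more than 1 SD under 8 of 20 alternative settings that keep the unit. Slc2a4 over Slc2a1 was 4.88 (log2) in the kallisto-layout table and 5.61 with protein-coding transcripts alone, a setting chosen after seeing the data; each library alone gave 4.99 to 5.36. Slc2a1 over Slc2a3 fell to 1.48 with a pseudocount of 1 and to 1.47 with posterior means, against 2.05 as reported, with single libraries at 1.88 and 2.22. Slc2a12 over Slc2a1 reversed to -0.082 in the kallisto-layout table, with single libraries at 0.15 and 0.77. Hk1 over Hk2 was -1.08 in the kallisto-layout table and -1.12 with protein-coding transcripts alone (single libraries -1.62 and -1.54), and Pygm over Pygb 1.1 and 1.17 (1.27 and 1.41). Gys1 over Pygm stayed within 1 SD, with single libraries at -3.54 and -3.15. Phkg1 over Phkg2 was 0.72 with protein-coding transcripts alone and reversed to -0.15 without replicate 1, against 0.51 without replicate 2. Beyond the library left out and the transcripts dropped, the cause of these shifts was not tested.

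No member was 2-fold apart under any of the 7 alternatives. The members at 1 TPM in both libraries were 9, 9 in the kallisto-layout table and 10 with posterior means, and 8 reached 5 TPM. The 528 of all genes 2-fold apart became 325 with a pseudocount of 1, 2759 with no minimum and 1345 at 1.5-fold. At 1.2-fold, members higher in replicate 1 were 5 as reported, 4 with posterior means or TMM-scaled counts, 3 with rescaling to nuclear protein-coding genes or DESeq2 size factors and 2 in the kallisto-layout table; members lower were 1 as reported, 0 with posterior means, TMM or DESeq2 scaling and 2 with that rescaling or the kallisto-layout table. These alternatives at 1.2-fold, and the order of neighbours in the kallisto-layout table, were chosen after seeing the data. No paired analysis was possible because the labels give 1 group. A count of genes apart needs both libraries and has no value with 1 left out. Depth limits Slc2a3 most, at 72 and 87 counts.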
